A study of Panax notoginseng with 12 samples.

Results

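The loci described here are those of the P. notoginseng root transcriptome whose first protein description names a nitrate, nitrite or peptide transporter, a nitrate or nitrite reductase, a NIN-like protein, molybdopterin, or a uroporphyrinogen methyltransferase. The text search took 102 of the 146330 loci. By description, 62 of them are NRT1/PTR (NPF) or peptide transporters, 11 are oligopeptide transporters (OPT), which carry longer peptides and metal chelates, and 5 are high affinity nitrate transporters of the NRT2 type. A further 3 are nitrate reductases, 1 is a nitrite reductase, 3 belong to the synthesis of the molybdenum cofactor, and 1 is a methyltransferase of the siroheme pathway. No description named a nitrite transporter or a true NIN-like protein. The remaining 16 loci share only the letters of the search word, such as 10 kDa chaperonin-like and thionin-like proteins. They are no part of nitrate use, and they are counted but kept apart.

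Nitrate reaches a root cell through transporters of the NRT2 family, which work at low external nitrate, and of the large NRT1/PTR family (NPF), which carries nitrate at higher supply and, in other members, di- and tripeptides, hormones or defence compounds. In the cytosol nitrate reductase, which holds a molybdenum cofactor, reduces nitrate to nitrite, and in plastids the siroheme enzyme nitrite reductase carries the reduction on to ammonium. In Arabidopsis the expression of many of these genes responds to nitrate, to ammonium and to the nitrogen status of the plant.

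Roots of 4 groups were profiled by RNA-seq with 3 libraries each, namely a control (CK), 15 mM ammonium (15A), 15 mM nitrate (15N), and 15 mM of both (15AN). The seedlings were 2 years old and had been pretreated for a week in a complete nutrient solution with a little ammonium nitrate, and roots were taken on day 3 of hydroponic treatment. CK received no nitrogen, as the study describes it for a sand culture with the same treatments. The sample labels give another age, of 3 days. RNA was pooled before library construction and it is not clear whether the libraries of a group are independent pools, so the p-values measure the spread between libraries, which may be technical.

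Expression is given in FPKM, fragments per kilobase of transcript scaled to library size, so that levels of different genes can be compared. Errors of FPKM are standard deviations of 3 libraries. Differences were tested with limma on log2(FPKM + 1) over the 22592 loci whose mean reached 5 FPKM in any group. A locus is called where its adjusted p stayed below 0.05 and its log2 fold change exceeded 1 in size. Since 1 is added to each value, a fold change understates the change of a low locus. In whole roots, fewer cells of a type and less RNA per cell cannot be told apart. Where near-identical copies share reads, as loci with the same description may, the reads were divided by the authors' software, and the split is uncertain.

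FPKM summed over all loci were 1420310 to 1517711 under CK, 2042250 to 2593466 under 15A, 2002096 to 2174581 under 15N, and 1776098 to 1800638 under 15AN. Scaling every library to the same total would move the median log2 change of all tested loci from 0.08 to -0.50 under 15A, from 0.08 to -0.41 under 15N, and from 0.07 to -0.20 under 15AN. For loci that were not called, changes after this scaling are not given here, and a modest rise may not outlast it. The library 15A replicate 1 stood apart. Its summed level of green tissue genes, of which 73 of 241 were above 0 anywhere, was 1823 FPKM, against 814 and 813 in the other 15A libraries, 1209 to 1299 under CK, 851 to 913 under 15N, and 650 to 691 under 15AN. Without this library the number of the described loci called against CK under 15A went from 11 to 12, and that for the interaction from 12 to 13. Of the 49 loci named for Casparian strip proteins of the root endodermis, 44 were above 0, with sums of 552 to 710 FPKM per library. Of the 14 loci for plasma membrane aquaporins, the water channels of root cells, 13 were above 0, and their sum was 1801 to 1930 FPKM under CK, 1066 to 1514 under 15A, 813 to 897 under 15N, and 1399 to 1467 under 15AN. Green tissue genes, outside 15A replicate 1, and aquaporins were thus lower than under CK, as were some but not all of the transporters described here. The part of these marker genes in the results was not tested.

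Of the 102 loci, 10 were at 0 in every library and 33 passed the filter, among them 21 NPF or peptide transporters and 4 OPTs. No NRT2, nitrate reductase or nitrite reductase locus did. Of the tested loci, 4 reached 5 FPKM under CK only (NPF6.3, NPF4.6-like, XLOC_007519 and XLOC_134528) and none in 1 treatment only, so the filter itself favours loci that are high under CK. In 15A against CK, 11 of the 33 were called, where 14.3% of all tested loci were. Of these 10 were lower and 1 higher, against 6.82% and 7.49% of all loci. Under 15N 12 were called, against 14.5% of all loci, with 11 lower and 1 higher, against 7.64% and 6.85%. Under 15AN 7 were called, against 12.2%, with 6 lower and 1 higher, against 6.93% and 5.3%. The median log2 change of the 33 loci was -0.19 under 15A, -0.55 under 15N and -0.33 under 15AN, against 0.08, 0.08 and 0.07 over all tested loci. Among the 21 NPF and peptide transporters, 5, 7 and 2 were called lower under 15A, 15N and 15AN, and 0 higher. The 2 of 21 under 15AN are close to the share of all loci. Among the 4 OPTs, 3, 2 and 2 were lower, and 1 was higher in each. The 33 also include 5 loci caught by letters alone, of which 2 were lower in each treatment.

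With a filter blind to the groups, a mean of at least 5 FPKM over all 12 libraries, 29 loci were tested, and 9, 9 and 5 were lower under 15A, 15N and 15AN, against 4.94%, 5.64% and 5.13% of all loci, while 1 was higher in each, against 7.41%, 6.7% and 4.92%. Without any filter, 16, 18 and 8 of the 92 loci above 0 were lower, against 4.16%, 4.54% and 4.06%, and 2, 1 and 1 were higher, against 3.35%, 3.09% and 2.54%. The plot of log2 fold changes by locus shows that the calls fell on a part of the transporters and that the most abundant ones were not called. All 3 comparisons share the CK libraries.

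**Figure D1:**
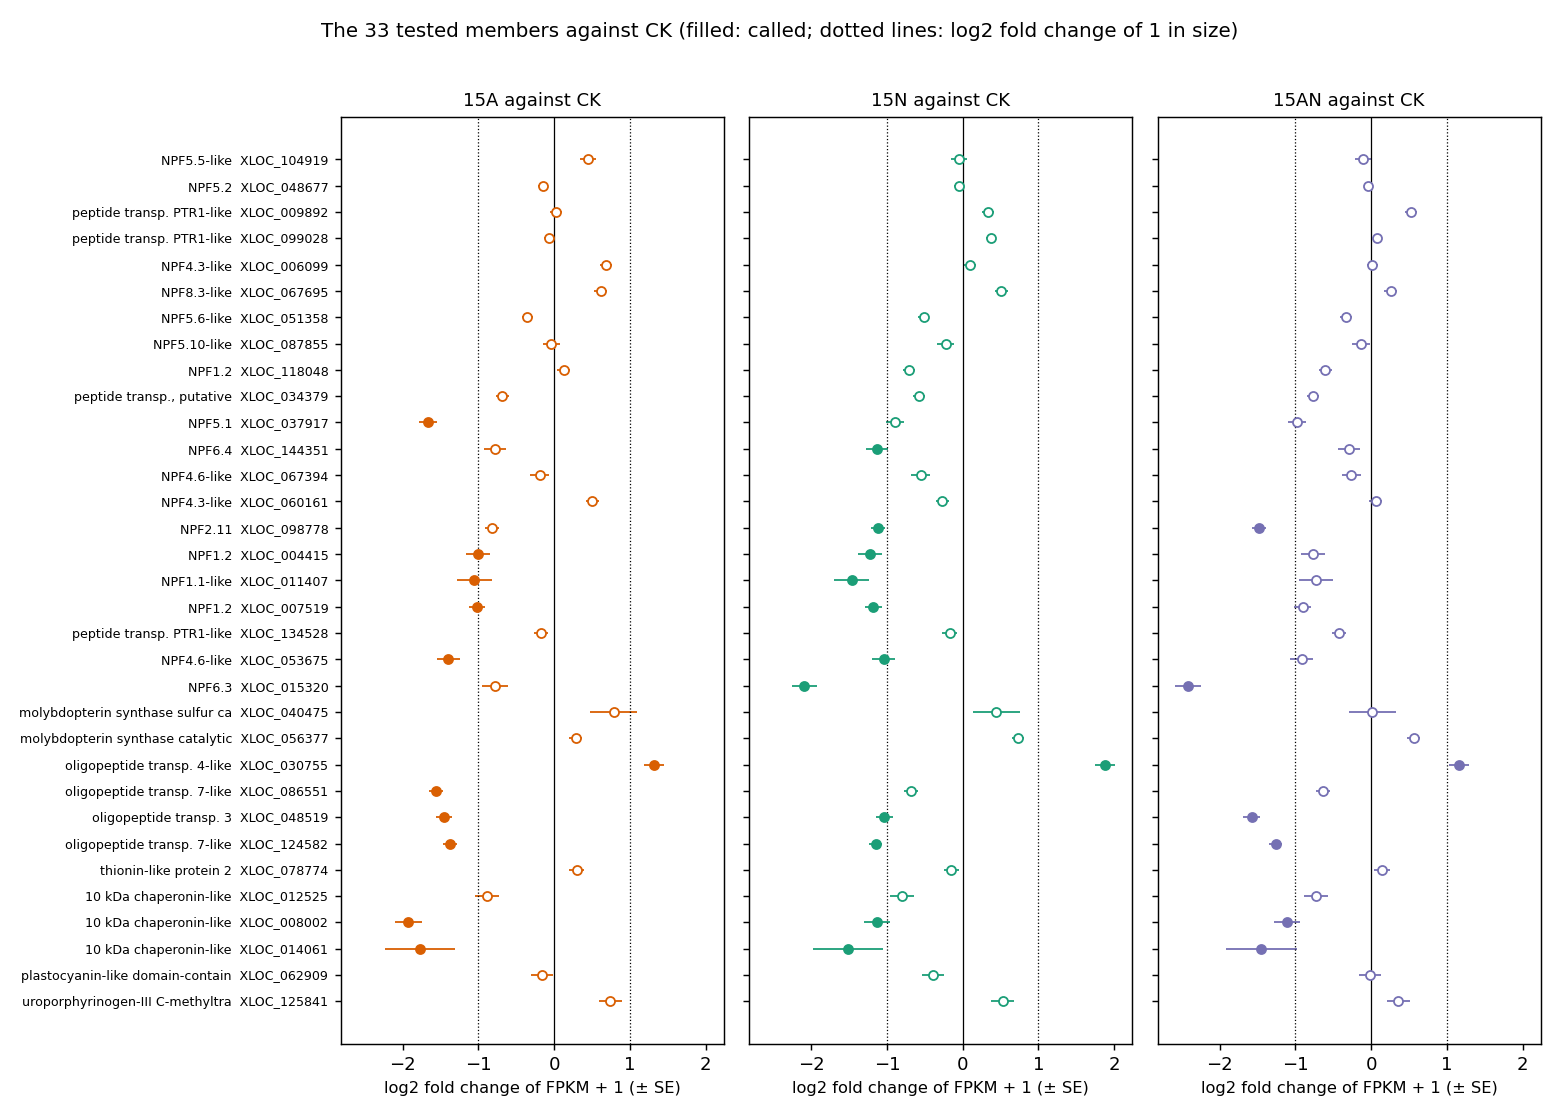
Log2 fold change of FPKM + 1 with its standard error for each of the 33 tested loci (rows, by role and then by mean FPKM) under 15A, 15N and 15AN against CK. Filled points were called, and the 6 NPF and peptide transporters with the highest mean FPKM, at the top, are open in every panel.

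The most abundant nitrate and peptide transporters were not called in any treatment. The highest was XLOC_104919, described as NPF5.5-like, with 52.3 ± 4.38 FPKM under CK, 71.7 ± 6.27 under 15A, 50.8 ± 7.16 under 15N, and 48.5 ± 1.24 under 15AN. XLOC_048677, NPF5.2, known in Arabidopsis as the peptide transporter PTR3, had 48.8 ± 1.87, 43.7 ± 1.21, 47.0 ± 1.10 and 47.3 ± 2.08 FPKM in the same order.

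Both of the more abundant loci described as PTR1-like, a name given in Arabidopsis to a di- and tripeptide carrier of the plasma membrane, were of similar level. XLOC_009892 had 37.1 ± 0.121 FPKM under CK and 53.9 ± 1.37 under 15AN, a log2 change of 0.53 with a standard error of 0.08. XLOC_099028 had 40.2 ± 1.60 FPKM under CK and 52.4 ± 0.542 under 15N, a log2 change of 0.37. Neither change reached 1 in size, although all 3 treated libraries lay above the CK libraries in both cases.

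NPF6.3 (XLOC_015320, contig C4959071, 58045 to 62186, minus strand) had the most negative log2 change of the 33 tested loci under 15N and under 15AN. In Arabidopsis NPF6.3, also called NRT1.1, is the dual-affinity nitrate transporter and nitrate sensor. Its FPKM were 5.69, 5.37 and 5.44 in the CK libraries, 3.55, 2.37 and 2.55 under 15A, 0.579, 0.431 and 0.579 under 15N, and 0.147, 0.182 and 0.328 under 15AN. The groups do not overlap, and they fall in the order CK, 15A, 15N, 15AN.

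The mean of CK was 1.95 times that of 15A, 10.4 times that of 15N and 25.1 times that of 15AN. On the log2 scale NPF6.3 fell by 2.09 under 15N (SE 0.17, adjusted p = 5.12e-06) and by 2.42 under 15AN (adjusted p = 3.09e-06). Under 15A the change of -0.78 (adjusted p = 0.00329) missed the fold threshold. NPF6.3 passed the filter through CK alone, the group where it is high. Without a filter the adjusted p was 3.01e-06 under 15N and 2.02e-06 under 15AN.

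NPF6.3 was also the single locus of the 33 that was called between treatments. It was lower under 15N than under 15A by a log2 change of -1.31 (adjusted p = 0.000530), where 4.59% of all tested loci were called, 2.63% lower and 1.96% higher. In 15AN against 15A the change was -1.64 (adjusted p = 6.25e-05), where 7.83% of all loci were called, 4.64% lower and 3.18% higher. Both groups that held nitrate were thus below the group that held ammonium alone. Both calls were lost with 5 in place of 1 added before the log2. Between 15AN and 15N, where 6.19% of all loci were called, 2.8% higher and 3.39% lower, 0 of the 33 loci were called by limma, while 17 had an unadjusted p under 0.05. The share of all loci at that unadjusted p is not given here, so the 17 are not set against it.

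**Figure D2:**
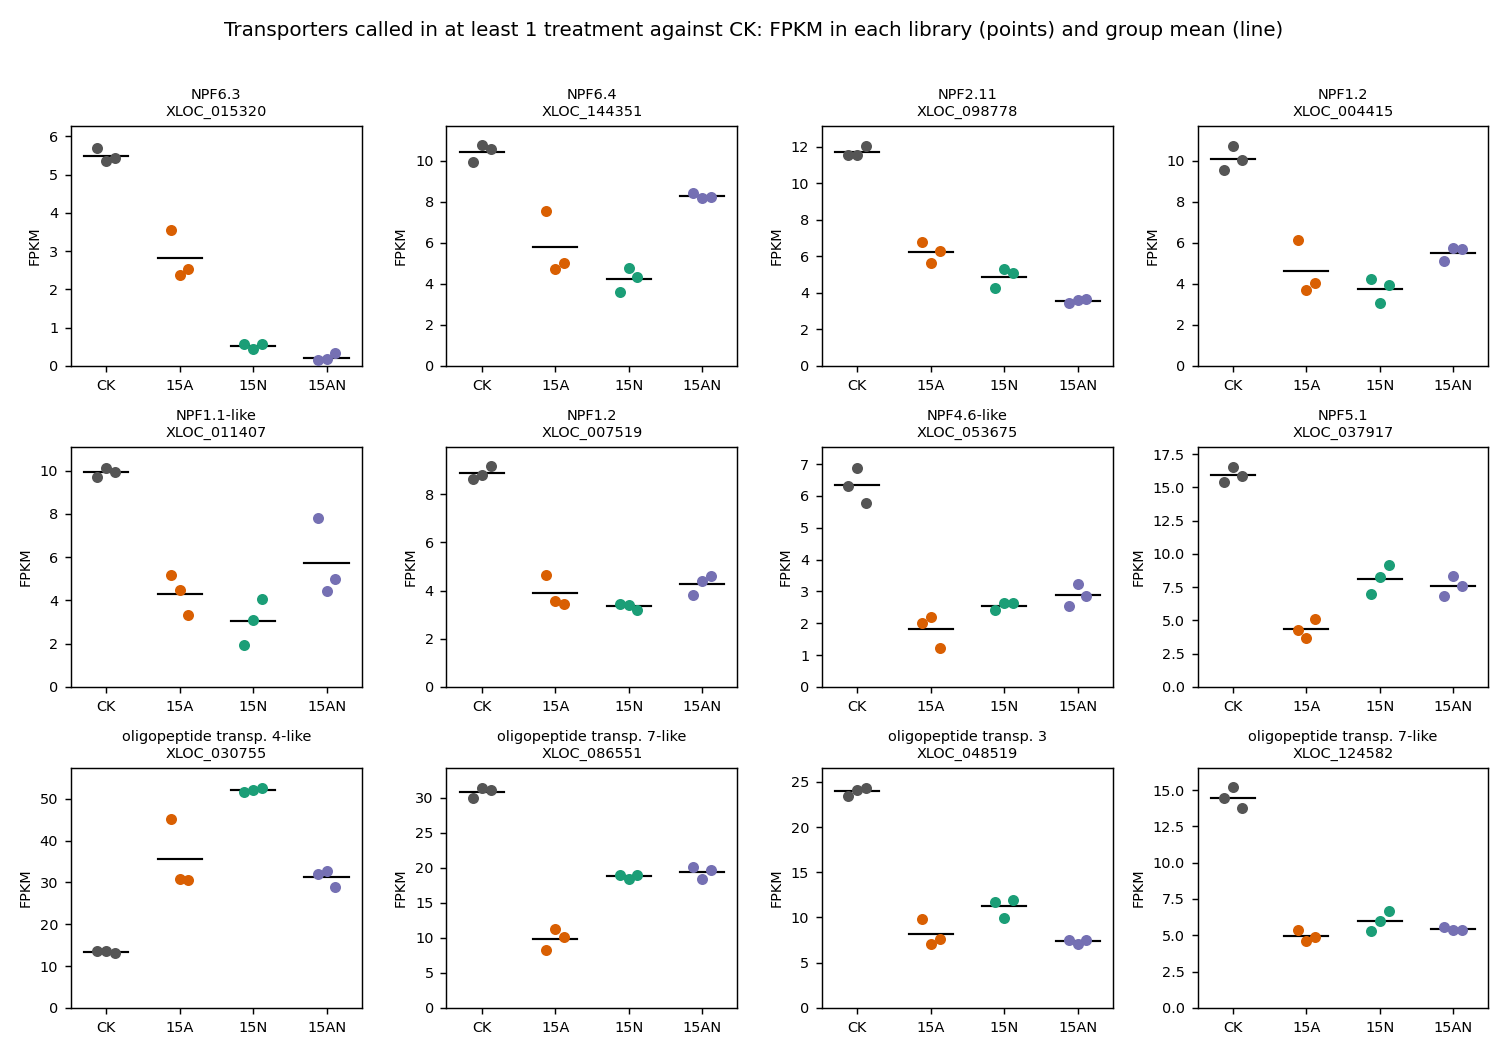
FPKM of the 12 nitrate and oligopeptide transporters called against CK in at least 1 treatment. Each point is a library, each line a group mean, and each axis starts at 0. The oligopeptide transporter 4 locus is higher in every treated library than under CK, and the other 11 loci are lower in every treated library than in any CK library.

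NPF6.4 (XLOC_144351, scaffold9643, 13607 to 18162, plus strand), whose Arabidopsis counterpart is NRT1.3, fell under 15N, while its level under 15AN lay closer to CK. The CK libraries had 9.94, 10.8 and 10.6 FPKM, the 15A libraries 7.58, 4.75 and 5.004, the 15N libraries 3.61, 4.78 and 4.34, and the 15AN libraries 8.43, 8.18 and 8.23. The change was called under 15N, at -1.13 (SE 0.15, adjusted p = 0.000119), and was -0.30 under 15AN. The difference between 15AN and 15N, 0.83 (adjusted p = 0.00224), was under the fold threshold.

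NPF2.11 (XLOC_098778, scaffold3176, 35834 to 40696, minus strand) is named after the Arabidopsis carrier GTR2, which moves glucosinolates. Its FPKM were 11.6, 11.5 and 12.05 under CK, 6.77, 5.62 and 6.27 under 15A, 4.27, 5.30 and 5.06 under 15N, and 3.44, 3.60 and 3.65 under 15AN. Each treatment lay below CK, and 15AN was lowest. It was called under 15N at -1.12 (adjusted p = 5.71e-06) and under 15AN at -1.48 (adjusted p = 1.56e-06), and under 15A the change was -0.82.

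NPF1.1 and NPF1.2 are known in Arabidopsis as NRT1.12 and NRT1.11, carriers that move nitrate from xylem to phloem in leaves. A pair of NPF1.2 loci and an NPF1.1-like locus fell under 15A and 15N. XLOC_004415 (NPF1.2) had 9.55, 10.7 and 10.05 FPKM under CK, 6.15, 3.71 and 4.03 under 15A, 4.25, 3.08 and 3.97 under 15N, and 5.11, 5.75 and 5.69 under 15AN. XLOC_007519 (NPF1.2) had 8.86 ± 0.278 FPKM under CK, 3.89 ± 0.670 under 15A, 3.35 ± 0.141 under 15N, and 4.28 ± 0.412 under 15AN. XLOC_011407 (NPF1.1-like), a short locus of 670 bases, had 9.93 ± 0.210, 4.32 ± 0.925, 3.05 ± 1.07 and 5.74 ± 1.81 FPKM in this order.

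In all 3 loci every treated library lay below every CK library. The log2 changes under 15A were -1.004, -1.02 and -1.06 and sat at the threshold. Each was lost without 15A replicate 3, where the number of loci called under 15A went from 11 to 8, the first also without CK replicate 2 or 15A replicate 2, and the second also without CK replicate 3 or 15A replicate 2. Under 15N they were -1.23 (adjusted p = 0.000116), -1.18 (adjusted p = 1.34e-05) and -1.47 (adjusted p = 0.000440), and under 15AN -0.77, -0.90 and -0.73, which were not called. XLOC_007519 passed the filter through CK alone, and without a filter its adjusted p was 7.64e-05 under 15A and 2.95e-05 under 15N. The NPF1.2 locus with the highest level, XLOC_118048, was chosen after its values were seen and had 16.8 ± 1.11 FPKM under CK, 18.4 ± 0.867 under 15A, 9.95 ± 0.701 under 15N, and 10.8 ± 0.828 under 15AN. Its log2 changes were 0.12, -0.70 and -0.60, none of which was called.

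NPF4.6-like (XLOC_053675, scaffold1756, 78711 to 83783, minus strand) shares its name with Arabidopsis NRT1.2, a low affinity nitrate transporter that also imports abscisic acid. It had 6.32, 6.89 and 5.78 FPKM under CK, 2.02, 2.18 and 1.22 under 15A, 2.41, 2.63 and 2.63 under 15N, and 2.55, 3.23 and 2.86 under 15AN. The fall was -1.40 under 15A (adjusted p = 3.50e-05) and -1.04 under 15N (adjusted p = 0.000271), the latter lost without CK replicate 2. Under 15AN it was -0.92 and not called. NPF4.6-like also passed the filter through CK alone, and without a filter its adjusted p was 6.91e-05 under 15A and 0.000482 under 15N.

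NPF5.1 (XLOC_037917), a locus of 827 bases on scaffold13936, fell most under 15A. Its FPKM were 15.4, 16.5 and 15.9 under CK, 4.28, 3.66 and 5.11 under 15A, 7.01, 8.26 and 9.17 under 15N, and 6.87, 8.34 and 7.58 under 15AN. The groups 15N and 15AN overlap with each other and lie between CK and 15A, and 15N exceeded 15A by 0.78 (adjusted p = 0.00153), under the fold threshold. The change was -1.67 under 15A (SE 0.12, adjusted p = 2.32e-06), and -0.89 and -0.98 under 15N and 15AN.

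Some peptide and NPF loci went the other way without reaching the fold threshold, and the pair given here was chosen after the values were seen. NPF8.3-like (XLOC_067695), named after the Arabidopsis dipeptide carrier PTR2, had 24.4 ± 2.71 FPKM under CK, 37.8 ± 2.70 under 15A, 35.1 ± 1.55 under 15N, and 29.3 ± 0.480 under 15AN. NPF4.3-like (XLOC_006099) had 28.5 ± 1.22 FPKM under CK, 46.5 ± 4.02 under 15A, 30.4 ± 1.64 under 15N, and 28.8 ± 1.55 under 15AN. The log2 change of NPF4.3-like under 15A was 0.69 (adjusted p = 4.48e-05), and both 15N and 15AN were below 15A, by -0.59 (adjusted p = 0.000538) and -0.67 (adjusted p = 0.000122). The rises of this pair were not read after scaling to the same total.

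Added over all 62 NPF and peptide transporter loci, the level was 444 to 459 FPKM in the CK libraries, 413 to 426 under 15A, 370 to 389 under 15N, and 385 to 389 under 15AN. The abundant loci that were not called make up much of these sums.

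The OPT loci gave the widest contrast within the set. OPT4-like (XLOC_030755, scaffold12317, 116303 to 122301, minus strand) was the single tested transporter called higher in any treatment. The Arabidopsis OPT family moves tetra- and pentapeptides, glutathione and metal chelates. Its FPKM were 13.6, 13.5 and 13.2 under CK, 45.3, 30.9 and 30.6 under 15A, 51.5, 52.2 and 52.6 under 15N, and 32.1, 32.8 and 29.0 under 15AN. All treated libraries were above CK, 15N was highest, and the library 15A replicate 1 was above the other 15A libraries.

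The mean of OPT4-like was 2.65 times that of CK under 15A, 3.88 times under 15N and 2.33 times under 15AN. Its log2 changes were 1.32 under 15A (SE 0.13, adjusted p = 1.66e-05), 1.88 under 15N (adjusted p = 1.55e-06) and 1.16 under 15AN (adjusted p = 5.52e-05). With every library scaled to the same total it stayed called under 15N, at 1.37, while the calls under 15A, at 0.72, and under 15AN were lost.

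OPT3 (XLOC_048519, scaffold16354, 220072 to 223909, plus strand), known in Arabidopsis for metal transport in the phloem and for iron signalling, fell in every treatment. It had 23.4, 24.1 and 24.4 FPKM under CK, 9.84, 7.04 and 7.64 under 15A, 11.8, 9.97 and 11.9 under 15N, and 7.50, 7.10 and 7.49 under 15AN. The log2 changes were -1.46 under 15A (adjusted p = 2.94e-06), -1.03 under 15N (adjusted p = 3.08e-05) and -1.58 under 15AN (adjusted p = 2.87e-06), and the call under 15N was lost without 15N replicate 2.

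A pair of OPT7-like loci fell as well. XLOC_124582 (scaffold6033, 45180 to 63697, plus strand) had 14.5 ± 0.714 FPKM under CK, 4.96 ± 0.396 under 15A, 5.99 ± 0.698 under 15N, and 5.44 ± 0.118 under 15AN, with log2 changes of -1.38, -1.15 and -1.26, all called. XLOC_086551 (scaffold26990, 53248 to 58129, minus strand) had 29.9, 31.4 and 31.0 FPKM under CK, 8.21, 11.2 and 10.1 under 15A, 19.0, 18.5 and 18.9 under 15N, and 20.1, 18.4 and 19.7 under 15AN. XLOC_086551 was called under 15A, at -1.56 (SE 0.09, adjusted p = 6.27e-07), and changed by -0.68 under 15N and -0.64 under 15AN. Both of these groups exceeded 15A, by 0.88 (adjusted p = 0.000141) and 0.92 (adjusted p = 5.09e-05), under the fold threshold.

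The sum over the 11 OPT loci was 88.0 to 89.9 FPKM under CK, 55.5 to 70.9 under 15A, 88.9 to 92.0 under 15N, and 63.6 to 67.6 under 15AN. The sum under 15N was close to that of CK although its parts were not, since OPT4-like was higher and OPT3 and both OPT7-like loci were lower.

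The remaining 59 loci above 0 stayed under 5 FPKM in every group, with means over the 12 libraries from 0.00211 to 3.63 FPKM and a median of 0.294. They were read from a fit without a filter, over 58721 loci, which called 1 of them higher and 6 lower in 15A against CK, 0 and 7 under 15N, and 0 and 3 under 15AN. Of all loci in that fit 3.35% were called higher and 4.16% lower under 15A, 3.09% and 4.54% under 15N, and 2.54% and 4.06% under 15AN. Under 15N and 15AN, 54 and 49 of the 92 loci above 0 had an unadjusted p under 0.05. The share of all loci at that unadjusted p is not given here, so these counts do not single out the described loci. The loci named from here to the end of the account of nitrite reduction were chosen after their values were seen.

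The 5 loci whose protein description names an NRT2 transporter were low. NRT2.5 (XLOC_048508, scaffold16354, 86134 to 87795, plus strand), which in Arabidopsis serves nitrate uptake in nitrogen-starved roots, had 0.835, 1.01 and 0.783 FPKM under CK, 0.220, 0.206 and 0.0402 under 15A, 0.123, 0.0398 and 0.245 under 15N, and 0.247, 0.146 and 0.107 under 15AN. Each treatment lay below CK, and the treatments overlap with one another. The mean of CK was 5.65, 6.45 and 5.26 times that of 15A, 15N and 15AN, and on the log2(FPKM + 1) scale the changes were -0.70, -0.73 and -0.69, under the fold threshold. The number of reads behind such low levels is not known here, so these ratios are imprecise. The other 4 NRT2 loci did not pass 0.376 FPKM in any library.

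A further locus, outside the set, bears on NRT2. XLOC_104526 (scaffold34177, 24113 to 25856, plus strand) carries a nucleotide description of a grapevine NRT2.4, while its protein description is of an unnamed product, so that the search did not take it. Its FPKM were 14.1, 13.3 and 13.3 under CK, 0.874, 1.17 and 1.68 under 15A, 0.697, 0.906 and 0.930 under 15N, and 2.24, 2.08 and 2.65 under 15AN. Every treated library lay far below CK. The log2 changes were -2.71 under 15A (SE 0.15, adjusted p = 3.97e-07), -2.98 under 15N (adjusted p = 2.34e-07) and -2.13 under 15AN (adjusted p = 3.16e-06). The interaction estimate was 3.56. The falls under 15A and 15N add up to more than the CK level on this scale, so a positive interaction was fixed by the floor. XLOC_104526 passed the filter through CK alone, the group where it is high, and its test without a filter is not given here.

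NPF7.3-like (XLOC_028656, scaffold11864, 14298 to 18930, plus strand), whose Arabidopsis counterpart NRT1.5 loads nitrate into the xylem, had 3.50, 4.08 and 3.24 FPKM under CK, 0.644, 0.906 and 1.11 under 15A, 0.466, 0.584 and 0.399 under 15N, and 0.402, 0.149 and 0.292 under 15AN. All treated libraries were below CK. Its log2 change was -1.29 under 15A (adjusted p = 5.58e-05), -1.63 under 15N (adjusted p = 1.22e-05) and -1.85 under 15AN (adjusted p = 8.04e-06).

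NPF2.7 (XLOC_130100), named after NAXT1, which releases nitrate from Arabidopsis roots, had 2.68, 2.79 and 2.37 FPKM under CK, 0.273, 0.511 and 0.458 under 15A, 0.380, 0.494 and 0.423 under 15N, and 0.984, 0.906 and 0.741 under 15AN. It was called lower under 15A, at -1.36, and under 15N, at -1.33. NPF2.13 (XLOC_102718), the counterpart of NRT1.7 of leaf phloem, had 1.70 ± 0.429 FPKM under CK, 0.320 ± 0.124 under 15A, 0.252 ± 0.0757 under 15N, and 0.742 ± 0.202 under 15AN, and was likewise called under 15A and 15N. In both loci 15AN lay between CK and the single treatments.

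An NPF1.2-like locus, XLOC_097579, had 2.78 ± 0.139 FPKM under CK, 1.13 ± 0.264 under 15A, 0.416 ± 0.0398 under 15N, and 0.760 ± 0.162 under 15AN, and was called under 15N at -1.41 and under 15AN at -1.11. XLOC_006519, NPF5.6-like, fell from 2.41 ± 0.381 FPKM under CK to 0.292 ± 0.0976 under 15A and 0.450 ± 0.218 under 15N. A probable peptide/nitrate transporter, XLOC_080145, was lowest under 15N, with 2.97, 2.75 and 3.02 FPKM under CK, 3.68, 2.38 and 3.18 under 15A, 1.26, 0.924 and 0.884 under 15N, and 3.74, 3.19 and 3.84 under 15AN. It was the single locus above 0 called in 15AN against 15N, at 1.18 (adjusted p = 0.000545, limma without a filter), where 1.46% of all loci were called higher. It was also called lower in 15N against 15A, at -1.005, where 1.23% of all loci were.

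**Figure D3:**
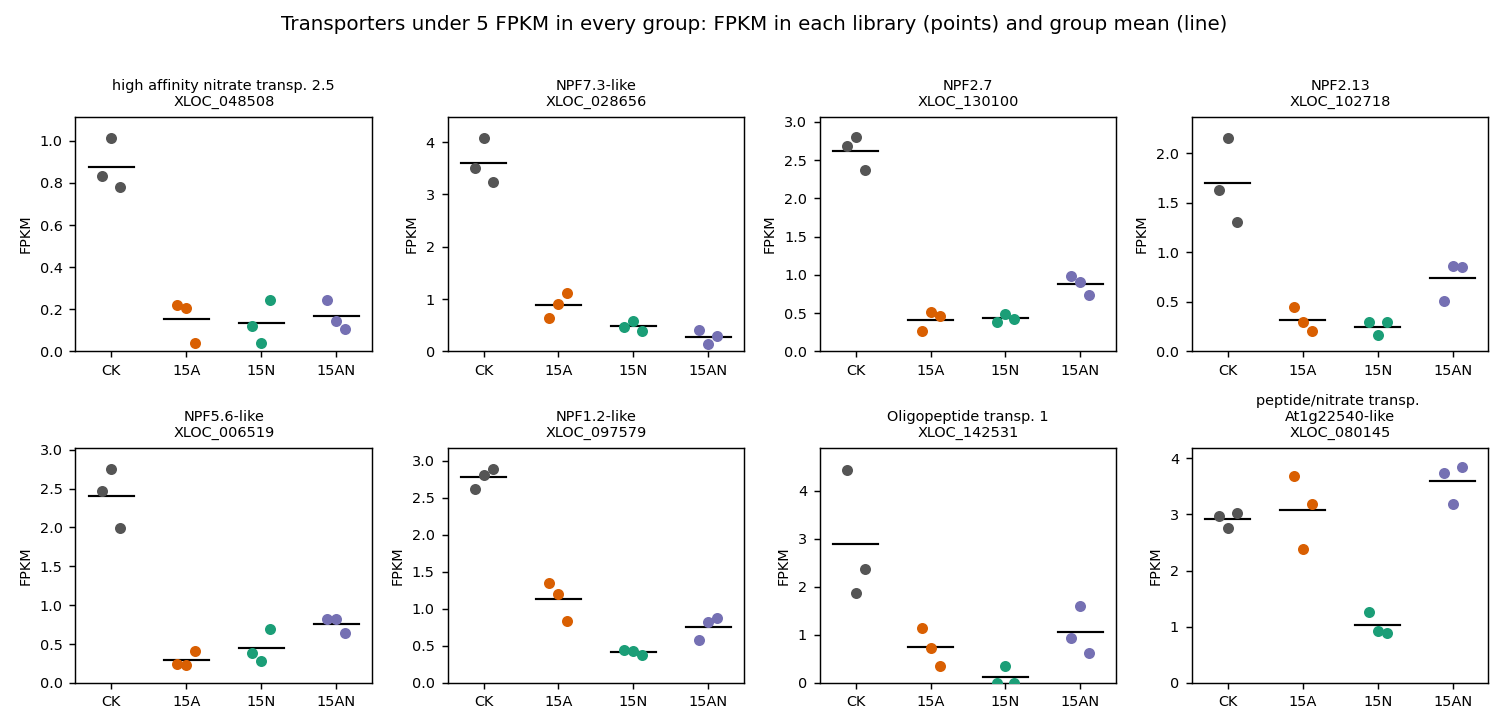
FPKM of 8 transporters that stayed under 5 FPKM in every group, by library (points) with the group mean (line), each axis from 0. In 7 of the panels CK is highest, and in the panel of XLOC_080145 the 3 nitrate libraries are lowest, at 0.884 to 1.26 FPKM.

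Nitrate reductase was detected at 1 of its 3 loci. XLOC_015832 (contig C4961245, 55926 to 62282, plus strand) had 0.376, 0.420 and 0.538 FPKM under CK, 0.369, 0.455 and 0.677 under 15A, 0.773, 0.942 and 0.903 under 15N, and 0.574, 0.441 and 0.622 under 15AN. The nitrate libraries were above all others, and the other groups overlap. The mean of 15N was 1.96 times that of CK. On the log2(FPKM + 1) scale the change was 0.37 (SE 0.10, adjusted p = 0.0154, limma without a filter), under the fold threshold, and under 15AN it was 0.10 (adjusted p = 0.545). The difference between 15N and 15A was 0.32 (adjusted p = 0.0695).

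The ferredoxin-nitrite reductase locus XLOC_137345 was at 0.0250, 0.180 and 0.202 FPKM under CK and at 0.236 to 0.479 FPKM in the 9 treated libraries. The treated libraries lay above CK and the treatments overlap. At such levels the changes of 0.23, 0.29 and 0.23 were not called.

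A locus outside the set bears on nitrite reduction. XLOC_067676 (scaffold21153, 92141 to 103981, plus strand) carries a nucleotide description of a birch nitrite reductase, while its protein description names a glycoprotein fucosyltransferase, so that it did not meet the search and its identity is unsettled. Its FPKM were 45.0, 42.2 and 44.1 under CK, 95.2, 77.3 and 74.8 under 15A, 337, 328 and 315 under 15N, and 64.0, 72.5 and 66.2 under 15AN. Nitrate alone gave the high level, 7.46 times the mean of CK, and the combined treatment did not. The log2 change was 2.87 under 15N (SE 0.09, adjusted p = 1.33e-08), and 15AN was lower than 15N by -2.26 (adjusted p = 2.20e-07).

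**Figure D4:**
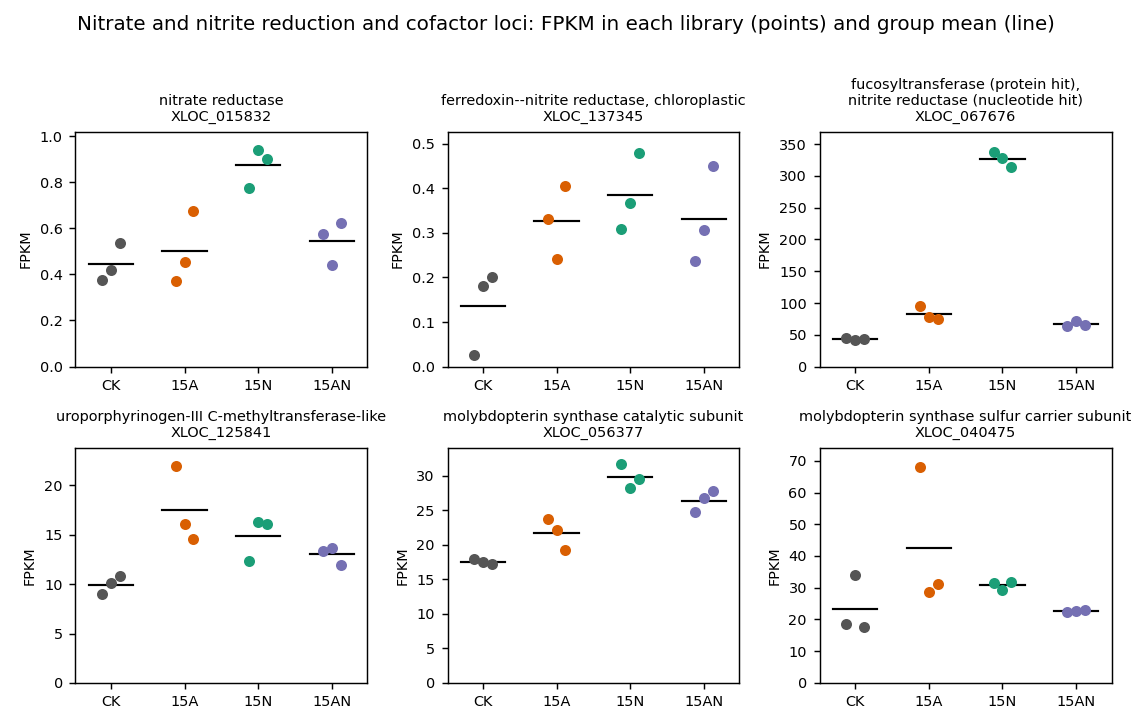
FPKM by library (points) and group mean (line), each axis from 0, for nitrate reductase, nitrite reductase, the locus with conflicting descriptions, and the loci of siroheme and molybdenum cofactor synthesis. The 15N libraries are highest for nitrate reductase, at 0.773 to 0.942 FPKM, and for XLOC_067676, at 315 to 337 FPKM.

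The cofactor loci were well expressed and were not called against CK. Molybdopterin synthase builds the dithiolene group that holds molybdenum in nitrate reductase and other molybdenum enzymes. Its catalytic subunit (XLOC_056377) had 17.9, 17.6 and 17.2 FPKM under CK, 23.7, 22.1 and 19.3 under 15A, 31.7, 28.2 and 29.5 under 15N, and 24.7, 26.7 and 27.8 under 15AN. Each treatment was above CK, with log2 changes of 0.28, 0.73 (adjusted p = 4.89e-05) and 0.56, under the fold threshold. Summed FPKM over all loci was also above CK in every treated library, and these rises were not read after scaling to the same total.

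The sulfur carrier subunit (XLOC_040475) was uneven within groups, with 18.6, 34.0 and 17.6 FPKM under CK and 68.0, 28.6 and 31.2 under 15A, where the high value is that of 15A replicate 1. The other groups were even, at 30.9 ± 1.49 FPKM under 15N and 22.6 ± 0.194 under 15AN. Uroporphyrinogen-III methyltransferase (XLOC_125841), which starts the branch to siroheme, had 8.99, 10.1 and 10.8 FPKM under CK, 22.0, 16.1 and 14.6 under 15A, 12.3, 16.3 and 16.1 under 15N, and 13.4, 13.7 and 11.99 under 15AN. All treated libraries lay above CK, and the log2 changes were 0.74 under 15A (adjusted p = 0.00235), 0.53 under 15N and 0.36 under 15AN, none of them called. As for the catalytic subunit, these rises were not read after scaling to the same total.

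The interaction asks whether the change under both nitrogen forms differs from the sum of the changes under each alone. Of the 33 loci, 12 were called, where 22.5% of all tested loci were. Of these 10 were higher and 2 lower, against 10.2% and 12.3% of all loci. A locus that is high under CK and about equally low in every treatment has a positive estimate by arithmetic. Each of the 10 was also called lower against CK in at least 1 treatment. The excess of higher calls is therefore not separate from those falls, which rest on the same CK libraries. With the filter over all 12 libraries 9 of 29 were higher and 2 lower, against 7.94% and 12.5%, and without a filter 17 of 92 were higher and 1 lower, against 6.29% and 5.59%. The median of the 33 was 0.46 on the log2 scale, against -0.08 over all loci. Among the NPF loci 6 of 21 were called higher and none lower, and among the OPT loci 2 were higher and 1 lower.

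NPF6.4 is a higher call in which 15AN lay closer to CK than either single treatment did. It changed by -0.78 under 15A and by -1.13 under 15N, but by only -0.30 under 15AN, an interaction of 1.61 (SE 0.21, adjusted p = 0.000123). Not all higher calls were of this kind. OPT7-like XLOC_124582 was about equally low in each treatment, at -1.38 under 15A, -1.15 under 15N and -1.26 under 15AN, with an interaction of 1.26. OPT4-like has the reverse sign, with 1.32 and 1.88 for the single treatments and 1.16 for both, an interaction of -2.04 (SE 0.18, adjusted p = 1.05e-05). NPF6.3 and NPF2.11, which were lowest under both forms, gave 0.45 and 0.46 and were not called. For NPF6.3 the falls under 15A and 15N add up to more than its CK level on this scale, so its positive sign was fixed by the floor.

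**Figure D5:**
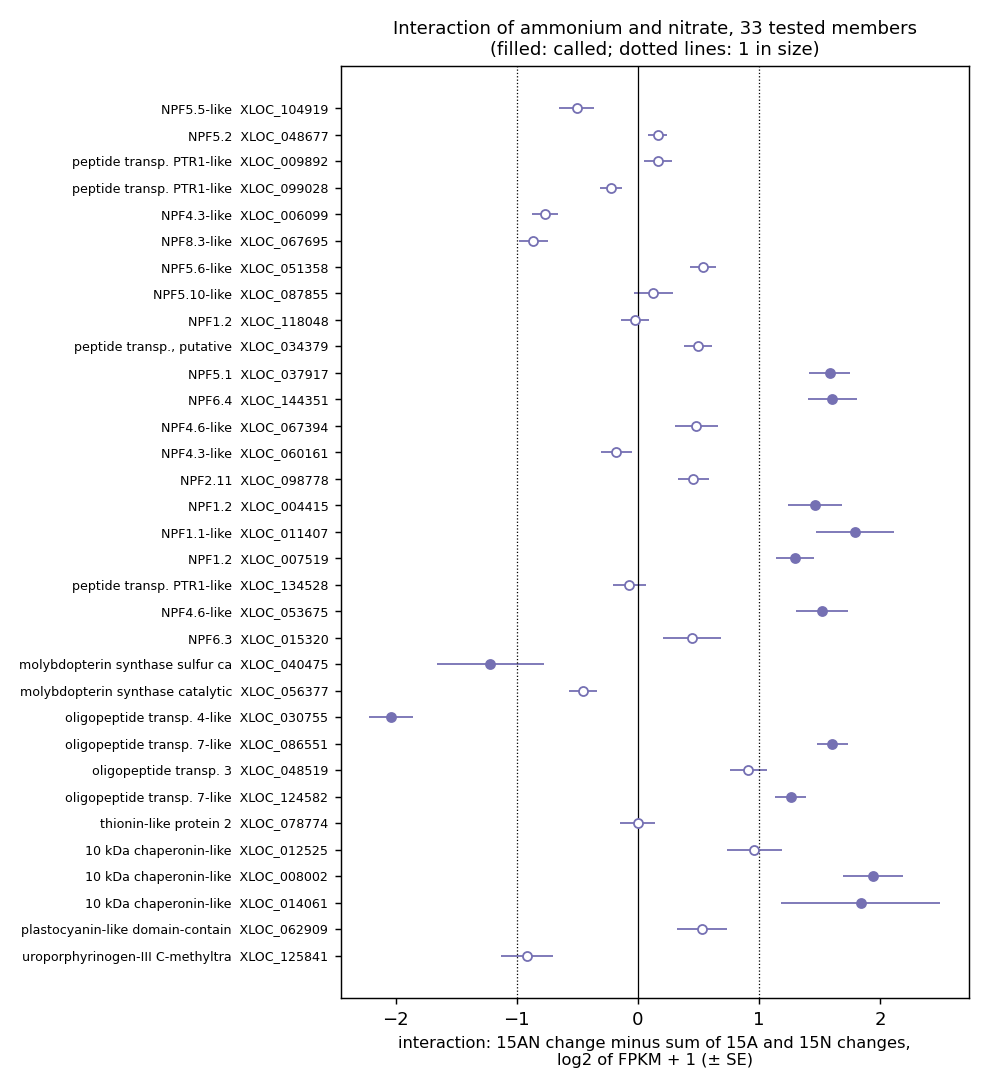
Interaction estimate of ammonium and nitrate with its standard error for each of the 33 tested loci, on the log2 scale of FPKM + 1. Filled points were called. OPT4-like has the lowest estimate, at -2.04, and a 10 kDa chaperonin-like locus, XLOC_008002, the highest, at 1.94.

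The 16 loci caught by letters alone include 5 that were tested. The most abundant, a thionin-like protein (XLOC_078774), had 419.6 ± 11.6 FPKM under CK, 519 ± 77.4 under 15A, 379 ± 28.7 under 15N, and 464 ± 19.8 under 15AN, and was not called. The 10 kDa chaperonins are partners of the folding machine of mitochondria and plastids. XLOC_012525 had 80.5 ± 3.31 FPKM under CK, 43.97 ± 12.5 under 15A, 45.9 ± 2.81 under 15N, and 48.3 ± 3.97 under 15AN, with log2 changes of -0.89, -0.80 and -0.73, none of them called. XLOC_008002 had 84.7, 96.7 and 97.3 FPKM under CK, 33.6, 19.5 and 20.2 under 15A, 46.7, 39.4 and 39.9 under 15N, and 40.8, 44.7 and 41.9 under 15AN, and was called lower in each treatment, at -1.92, -1.13 and -1.11. XLOC_014061, at 26.5 ± 6.76 FPKM under CK, was also called lower in each, and its calls under 15N and 15AN were lost without CK replicate 2 or without CK replicate 3, without 15N replicate 3 under 15N, and without 15AN replicate 1 or 3 under 15AN. Leaving out the 16 loci, which was chosen after seeing the data, left 28 tested loci, of which 9, 10 and 5 were called against CK under 15A, 15N and 15AN. Of all tested loci 14.3%, 14.5% and 12.2% were called. In each treatment OPT4-like was the 1 higher call and the others were lower.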

How the data were processed

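RNA of P. notoginseng roots was sequenced in 12 libraries. The deposited values are FPKM per assembled locus, which the authors computed with Cuffnorm 2.2.1 after read alignment to the species' genome (TopHat2 2.0.13, Bowtie2 2.1.0) and assembling transcripts with Cufflinks 2.2.1. The build name of the genome is not given in the sources used here, and read counts were not used here, so depth sets no interval and the number of libraries limits the precision.

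The 102 loci were taken by matching words in the first protein description. The authors' edgeR step needs counts and was not repeated. FPKM + 1 were log2-transformed, loci whose mean reached 5 FPKM in any of 4 groups were kept, and all groups were fitted in 1 linear model with lmFit and a trended eBayes (limma 3.58.1, R 4.3.3). The p-values are two-sided and adjusted by Benjamini-Hochberg over all 22592 loci tested, and calls needed an adjusted p below 0.05 and a log2 fold change exceeding 1 in size. The interaction is 15AN - 15A - 15N + CK. The method was tested on simulated data. Named loci are the 4 tested loci with the highest mean FPKM of each role, the called loci, and others that are marked as chosen after their values were seen. The loci and gene lists were chosen with earlier results of these data known. Role lists that separate the OPT loci, the loci caught by letters, and the NLP proteins were set after descriptions had been seen. Alternatives were another pseudocount, filter or scaling, a fit of 2 groups, a replicate block, and leaving out each library. Figures were drawn with matplotlib 3.10.9.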

Additional observations from a re-analysis of the deposited data

Results flagged for a closer look

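The change under both nitrogen forms differed from the sum of the changes under each alone, by the interaction term in limma, for 12 of the 33 tested loci, where 22.5% of all tested loci were called. On the log2 scale the interaction was 1.79 for NPF1.1-like (XLOC_011407), 1.61 for NPF6.4 (XLOC_144351), 1.58 for NPF5.1 (XLOC_037917), 1.52 for NPF4.6-like (XLOC_053675), and 1.46 and 1.29 for the NPF1.2 loci XLOC_004415 and XLOC_007519. In these 6 loci the fall in 15AN was smaller than the sum of the falls in 15A and 15N, which also holds for any locus equally low in every treatment.

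Among the oligopeptide transporters it was 1.61 for OPT7-like XLOC_086551, 1.26 for OPT7-like XLOC_124582, and -2.04 for OPT4-like XLOC_030755, which was higher in every treatment. It was 1.94 and 1.84 for the 10 kDa chaperonin-like loci XLOC_008002 and XLOC_014061. For the molybdopterin synthase sulfur carrier (XLOC_040475) it was -1.22, a call that was lost under 14 of 21 alternatives, among them the one without 15A replicate 1, whose value of 68.0 FPKM and whose green tissue sum of 1823 FPKM were both high. The part of that library in the result was otherwise not tested. The call of XLOC_014061 was lost under 8 of 21 alternatives, 7 of them leaving out a library of CK (replicate 2 or 3), 15A (2 or 3), 15N (2 or 3) or 15AN (2).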

How the results depend on the processing

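None of the 44 calls reversed under any alternative, 16 were kept under each alternative run, and 28 were lost under at least 1. Adding 5 before the log2 left 6 loci called in 15A against CK, 3 in 15N, 4 in 15AN, 0 in 15N against 15A, 0 in 15AN against 15A, and 8 for the interaction. Adding 0.1 gave 10 in 15AN against CK and 1 in 15AN against 15N. Without a filter the counts were 18 in 15A, 19 in 15N, 3 in 15N against 15A, 2 in 15AN against 15A, 1 in 15AN against 15N, and 18 for the interaction. A mean of at least 10 FPKM left 8 in 15N against CK, and 0 in both 15N and 15AN against 15A, as did the filter over all 12 libraries, since NPF6.3 was then not tested. Scaling to the same total gave 19 in 15N, 13 in 15AN, 3 in 15AN against 15A, 1 in 15AN against 15N, and 21 for the interaction, of which 20 were higher and 1 lower. In 15AN against CK all 13 were then lower, in 15AN against 15A 2 were higher and 1 lower. Against CK this scaling lowers the median of all tested loci, as given with the results, so the added lower calls do not single out the described loci. It lowers 15A and 15N more than 15AN, which raises the interaction of loci in general. The 20 higher interaction calls under this scaling therefore do not single out the described loci either. Leaving out 1 library gave 8 to 12 in 15A, 10 to 12 in 15N, 6 to 8 in 15AN, 1 to 2 in 15N against 15A and in 15AN against 15A, 0 to 0 in 15AN against 15N, and 10 to 13 for the interaction. Without 15A replicate 1 the counts were 12 in 15A, 2 in 15N against 15A, 2 in 15AN against 15A, and 13 for the interaction. The interaction was not fitted on 2 groups. The share of all loci called under each alternative is not printed with these counts. They compare the settings with one another, not the described loci with all loci.

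Libraries with the same replicate number did not deviate together, with correlations from -0.0998 to 0.0505, so the numbers do not pair them. A replicate block left 11, 12 and 7 loci called against CK, 1, 1 and 0 between treatments, and 11 for the interaction. The number of reads behind loci under 1 FPKM is not known here. Without a filter, NRT2.5 in each treatment and nitrate reductase under 15N had an adjusted p below 0.05 and missed the fold threshold.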

Other observations

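Other genes of nitrogen use were read from the same fit by description. Of 49 loci matched by words for ammonium uptake and assimilation, 24 were tested, and 5 were higher and 1 lower in 15A against CK, 3 and 1 under 15N, and 1 and 2 under 15AN. The tested loci include a folylpolyglutamate synthase (XLOC_081558), caught by letters alone, which was not among the calls against CK. Of all tested loci 7.49% were called higher and 6.82% lower under 15A, 6.85% and 7.64% under 15N, and 5.3% and 6.93% under 15AN, and the counts of the lists that follow stand against the same shares. An ammonium transporter 3 locus (XLOC_029314) had 1.44 ± 0.294 FPKM under CK, 11.04 ± 1.54 under 15A, 9.25 ± 2.77 under 15N, and 8.95 ± 0.235 under 15AN, and was called in each treatment. It passed the filter through the treated groups alone, where it is high. Asparagine synthetase (XLOC_026545), which stores nitrogen in asparagine, had 167 ± 5.05 FPKM under CK, 81.5 ± 17.8 under 15A, 31.996 ± 1.27 under 15N, and 25.999 ± 0.804 under 15AN.

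NLP proteins, which switch on nitrate response genes in Arabidopsis, were not taken by the search. Of 15 such loci 5 were tested, and 1 of them, NLP2-like (XLOC_047637), was called lower in each treatment, with 6.75 ± 1.2004 FPKM under CK, 2.27 ± 0.719 under 15A, 2.25 ± 0.390 under 15N, and 2.24 ± 0.366 under 15AN. NLP2-like passed the filter through CK alone, the group where it is high, and its test without a filter is not given here. Of 35 loci for other nitrate signalling proteins 9 were tested, and 1 was higher and 1 lower under 15A, 0 and 4 under 15N, and 0 and 2 under 15AN. Of the 9, 7 had an unadjusted p under 0.05 in each of these comparisons by limma, a count without the share of all loci beside it. The nitrogen repressor LBD37 (XLOC_107339) had 12.8 ± 0.902 FPKM under CK, 7.16 ± 0.631 under 15A, 4.58 ± 0.276 under 15N, and 4.66 ± 0.709 under 15AN. A BTB/POZ and TAZ domain protein (XLOC_009648) was high under 15A alone, with 107 ± 4.08, 272 ± 74.4, 86.0 ± 0.953 and 105 ± 5.004 FPKM in this order.

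A further 28 loci met the search words only in a nucleotide description, some by letters alone, and 11 of them were tested. Of these 0 were higher and 4 lower under 15A, 1 and 3 under 15N, and 0 and 3 under 15AN. Besides the NRT2.4 and nitrite reductase loci given with the results, the locus XLOC_081089, which was chosen after its values were seen, had 15.8 ± 0.996 FPKM under CK, 4.04 ± 1.48 under 15A, 2.18 ± 0.376 under 15N, and 4.55 ± 0.281 under 15AN. XLOC_081089 also passed the filter through CK alone.

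Of 15 loci for the supply of reductant and siroheme 11 were tested, and 0 were higher and 1 lower in 15A against CK, 0 and 1 under 15N, and 1 and 1 under 15AN (limma, with 7, 9 and 5 of the 11 at an unadjusted p under 0.05). The lower one was a cytosolic glucose-6-phosphate dehydrogenase (XLOC_020931), an enzyme that makes NADPH, with 21.2 ± 1.72 FPKM under CK, 8.15 ± 0.932 under 15A, 8.54 ± 0.650 under 15N, and 8.603 ± 0.153 under 15AN. The higher one was a 6-phosphogluconate dehydrogenase (XLOC_006921), a further enzyme that makes NADPH. It was at 5.95, 6.16 and 7.26 FPKM under 15AN and at 0 to 0.254 in the other 9 libraries, a log2 change of 2.67 against CK (SE 0.22). XLOC_006921 passed the filter through 15AN alone, the group where it is high, and its test without a filter is not given here. Of 15 loci for anion release or storage 5 were tested, and limma called 0 of them in any treatment against CK, with 3, 2 and 3 at an unadjusted p under 0.05 under 15A, 15N and 15AN. For neither of these lists is the share of all loci at that unadjusted p given here.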
